A study of Mus musculus with 12 samples.

Results

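The extracellular matrix, integrin and protease genes described here are 58 of the 6427 genes measured in the brains of mice lacking 1 or both copies of Gja9, a neuronal gap junction gene. They were chosen by symbol only: collagens, laminins, ADAM and ADAMTS proteases, matrix metalloproteinases, TIMPs, integrins, thrombospondins, fibrillins, Sparc family members, small leucine-rich proteoglycans and serpins. A gene had to have a value in all 12 samples and a probe that names it alone. The 58 genes were read by 87 cDNA clones: 40 genes had 1 clone and 18 had several, which were averaged. Another 7 clones that name a gene of these families together with another gene were not used.

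The matrix of the brain is built around blood vessels, at the pial surface and between cells, from collagens and laminins in basement membranes and from proteoglycans elsewhere. Integrins are paired alpha and beta receptors that link this matrix to the cytoskeleton. ADAM, ADAMTS and matrix metalloproteinases cut matrix and cell surface proteins, TIMPs hold the metalloproteinases in check, and most serpins trap serine proteases such as plasmin and thrombin.

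Brains came from C57Bl/6j mice at postnatal day 10, which were Gja9_null (both copies of Gja9 ablated), Gja9_het (1 copy ablated) or wildtype, with 4 samples of each genotype. Gja9 is the older name of Gjd2, which encodes connexin36. Each sample was 1 colour of a spotted cDNA array with 2 colours, and each of the 6 arrays held 2 samples of the same genotype, so a genotype rested on 2 arrays. The design text calls the samples biological replicates, and the labels do not say how the mice of a genotype were related. All p-values therefore measure the spread between these samples and arrays. The labels name no cell type that limits the ablation. RNA was taken from the brain as a whole, so fewer cells of a type and less RNA per cell cannot be told apart.

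Values are log2 of a clone's signal over the mean signal of its sample, so 0 is the mean spot of that sample and a difference of 1 is a doubling. No clone used here names Gjd2, and the targeted gene was not checked. Of 12 neuron markers, 5 were read (Tubb3, Map2, Syt1, Nefl and Nefm), and their mean lay between 0.76 and 1.84 in Gja9_null brains, between 1.74 and 1.99 in Gja9_het brains and between 1.68 and 2.05 in wildtype brains. The first Gja9_null array, which holds samples 1 and 2, stood apart: 9.34% and 8.81% of all features lay more than 1 log2 unit below their mean over the 12 samples there, against 0.315% to 2.01% in the other 10 samples. Among the 58 genes, 4 and 7 lay that far down in these samples, against 0 or 1 in each of the others. The colours of 1 array correlated at 0.986 to 0.991 across probes and different arrays of the same genotype at 0.865 to 0.922. The differences of many genes are therefore also given without the first Gja9_null array, and how many of the 58 it turned or shrank is counted further on.

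Each comparison was fitted with limma over 9514 features, with the array as a random block, and the Benjamini-Hochberg adjustment ran over all of these features. No gene of the 58 passed an adjusted p of 0.05 in any comparison. The smallest adjusted p was 0.271 for Serpinb6b in Gja9_null against wildtype, 1 in Gja9_het against wildtype, and 0.121 for Serpinf2 in Gja9_null against Gja9_het. Over all features, 0.326% passed in the first of these comparisons, 0% in the second and 0.273% in Gja9_null against Gja9_het. The comparisons share samples, so their values are given side by side.

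At an unadjusted p under 0.05, 0 genes of the 58 were higher and 4 lower in Gja9_null than in wildtype brains, namely Serpinb6b, Mmp24, Serpind1 and Timp3, where 2.41% of all features were higher and 9.22% lower. In Gja9_het against wildtype, 3 were higher (Mmp19, Serpina12 and Col9a3) and 0 lower, where 1.67% and 0.515% of all features were. In Gja9_null against Gja9_het, 0 were higher and 9 lower (Serpinf2, Itgae, Serpinb6b, Col9a3, Thbs2, Serpina12, Serpind1, Fbn2 and Mmp19), where 3.64% and 11.3% of all features were. As shares of the 58 genes, the 4 lower in Gja9_null against wildtype are 6.9%, under the share of all features, while the 3 higher in Gja9_het against wildtype are 5.17% and the 9 lower in Gja9_null against Gja9_het 15.5%, both over it. These gaps were not tested, and no direction is read from them. With the replicate number as a block, 5 genes were higher in Gja9_het than in wildtype brains, Itga6 and Lama2 beside the 3, where 1.94% of all features were. Without the dimmest 25% of probes 39 of the 58 genes were left, and 0 reached this level in Gja9_null or Gja9_het against wildtype. In Gja9_null against Gja9_het 2 were lower. Of all features 7.01% were then lower in Gja9_null against wildtype, 1.61% higher in Gja9_het against wildtype and 8.43% lower in Gja9_null against Gja9_het. Genes with only dim probes left this fit and were not tested again. Thbs2, Mmp24, Serpinb6b and Serpind1 were dim, with wildtype means of -2.86, -2.18, -2.13 and -1.78. The median probe of the wildtype samples lay between -0.89 and -0.84.

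**Figure D1:**
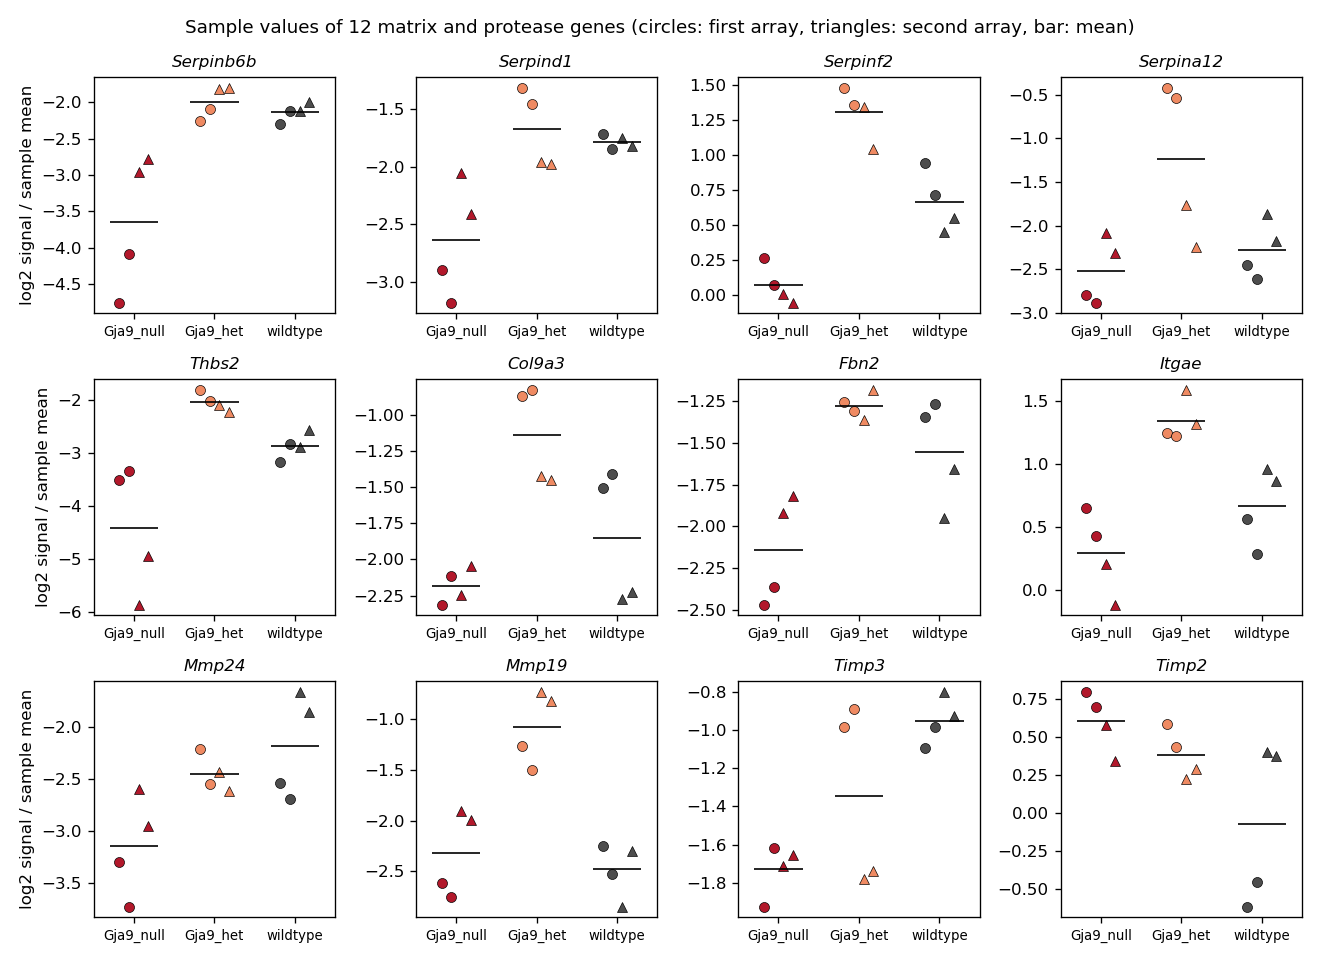
Log2 signal over the sample mean (vertical axis) for 12 of the 58 genes in Gja9_null, Gja9_het and wildtype brains, with circles for samples 1 and 2 (first array of a genotype), triangles for samples 3 and 4 (second array) and a bar for the mean of the 4 samples. For Serpinb6b, Thbs2, Mmp19 and Serpina12 the arrays of Gja9_null and of Gja9_het lie apart by more than their colours, and in wildtype brains this holds for Serpina12 but not for the other 3.

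Among the serpins were the smallest p-values of the 58 genes in Gja9_null against wildtype (Serpinb6b) and in Gja9_null against Gja9_het (Serpinf2), although neither was called. Serpinb6b, an intracellular serpin of clade B, had log2 values of -4.75, -4.09, -2.96 and -2.78 in Gja9_null brains, -2.25, -2.09, -1.82 and -1.80 in Gja9_het brains and -2.29, -2.13, -2.12 and -1.99 in wildtype brains. All 4 Gja9_null samples lay below all others, with the lowest on the first array. Its difference was -1.51 ± 0.51 in Gja9_null against wildtype (SE, limma, unadjusted p = 0.00995, adjusted p = 0.271) and -1.65 ± 0.51 against Gja9_het (unadjusted p = 0.00569, adjusted p = 0.163), while Gja9_het against wildtype gave 0.14 ± 0.51. Without the first Gja9_null array the first 2 were -0.74 and -0.88, and without the second -2.29 and -2.43 (limma, adjusted p = 0.016 and 0.0153). The latter fit keeps only the first Gja9_null array, and 8.21% and 8.45% of all features were called in it.

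Serpinf2, alpha-2-antiplasmin, the main inhibitor of plasmin, had log2 values of 0.27, 0.07, 0.01 and -0.05 in Gja9_null brains, 1.48, 1.36, 1.34 and 1.04 in Gja9_het brains and 0.95, 0.71, 0.45 and 0.55 in wildtype brains. The 3 genotypes did not overlap, with Gja9_het on top and Gja9_null at the bottom. Gja9_null differed from Gja9_het by -1.23 ± 0.33 (SE, limma, unadjusted p = 0.00209, adjusted p = 0.121) and from wildtype by -0.59 ± 0.33 (adjusted p = 0.526), and Gja9_het from wildtype by 0.64 ± 0.33 (adjusted p = 1). Without the first Gja9_null array the difference from Gja9_het was -1.33.

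Serpind1, heparin cofactor II, which inhibits thrombin, had log2 values of -2.90, -3.18, -2.06 and -2.41 in Gja9_null brains, -1.32, -1.46, -1.96 and -1.97 in Gja9_het brains and -1.72, -1.85, -1.75 and -1.82 in wildtype brains. Every Gja9_null sample lay below every sample of the other genotypes, sample 3 only by a small margin. Its difference was -0.85 ± 0.36 against wildtype (SE, limma, adjusted p = 0.378) and -0.96 ± 0.36 against Gja9_het (adjusted p = 0.237). Without the first Gja9_null array these were -0.45 and -0.56, and without the second -1.25 and -1.36 (limma, adjusted p = 0.0395 and 0.03). The latter fit keeps only the first Gja9_null array, and 8.21% and 8.45% of all features were called in it. After local centring, a correction described further on, the differences of Serpind1 were 0.07 and -0.15.

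Serpina12, vaspin, a serpin known from fat tissue, had log2 values of -2.80, -2.88, -2.08 and -2.32 in Gja9_null brains, -0.42, -0.54, -1.76 and -2.24 in Gja9_het brains and -2.45, -2.61, -1.87 and -2.18 in wildtype brains. The high values belonged to the first Gja9_het array, and the second overlapped both other genotypes. Gja9_het differed from wildtype by 1.04 ± 0.46 (SE, limma, unadjusted p = 0.0387, adjusted p = 1) and Gja9_null from Gja9_het by -1.28 ± 0.46 (adjusted p = 0.218). Without the first Gja9_het array these were 0.28 and -0.52. The gap between the Gja9_het arrays, 1.52, was larger than either difference.

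Serpinh1, the collagen chaperone HSP47, ranged from -1.86 to -0.92 in Gja9_null brains, -1.09 to -0.88 in Gja9_het brains and -1.19 to -0.88 in wildtype brains. The samples of the first Gja9_null array were the 2 low ones. Its difference against wildtype was -0.40 ± 0.33 and came to 0.06 without that array. The other serpins were Serpina6 (corticosteroid-binding globulin), Serpinb2 (plasminogen activator inhibitor 2), Serpine3, Serpinf1 (pigment epithelium-derived factor) and Serping1 (C1 inhibitor). Over the 3 comparisons their differences lay between -0.30 (Serpine3) and 0.39 (Serpinf1), both in Gja9_null against wildtype. Of the 10 serpins, 9 lay below 0 in Gja9_null against wildtype with a median of -0.30, and 6 after local centring.

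Among the collagens, which form the fibrils and sheets of the matrix, differences between Gja9_null and wildtype lay between -0.78 (Col22a1) and 0.43 (Col3a1), with a median of -0.02 over the 11. The fibrillar collagen Col1a1 ranged from -1.35 to -0.39 in Gja9_null brains, -1.07 to -0.63 in Gja9_het brains and -1.38 to -0.34 in wildtype brains, and its partner Col1a2 from -1.16 to -0.56 in Gja9_null brains, -1.37 to -1.19 in Gja9_het brains and -1.62 to -0.55 in wildtype brains. Col3a1, the main chain of collagen III in vessel walls and meninges, ranged from -1.22 to -0.22 in Gja9_null brains, -1.06 to -0.44 in Gja9_het brains and -1.44 to -0.93 in wildtype brains. The difference of Col3a1 in Gja9_null against wildtype, 0.43 ± 0.47, was 0.05 without the first Gja9_null array. None of these 3 separated any genotype from wildtype, since the ranges of the samples overlapped. Single arrays could lie apart. The Gja9_het samples of Col1a2 lay between the 2 wildtype arrays, and the first Gja9_null and Gja9_het arrays of Col3a1 lay above all wildtype samples.

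Col4a1, a core chain of vascular basement membrane, had log2 values of -0.20, 0.08, -0.07 and -0.08 in Gja9_null brains, -0.13, 0.02, 0.00 and 0.03 in Gja9_het brains and 0.17, 0.42, -0.51 and -0.47 in wildtype brains. The 2 wildtype arrays enclosed all other samples. Its differences were 0.03 ± 0.33 in Gja9_null against wildtype and 0.08 ± 0.33 in Gja9_het against wildtype (SE, limma, adjusted p = 0.988 and 1).

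Col9a3, a chain of the fibril-associated collagen IX known from cartilage, had log2 values of -2.31, -2.12, -2.25 and -2.05 in Gja9_null brains, -0.87, -0.83, -1.42 and -1.45 in Gja9_het brains and -1.50, -1.41, -2.28 and -2.23 in wildtype brains. All Gja9_null samples lay below all Gja9_het samples, and the second wildtype array lay with Gja9_null. Gja9_null differed from Gja9_het by -1.04 ± 0.33 (SE, limma, unadjusted p = 0.00673, adjusted p = 0.174) and Gja9_het from wildtype by 0.71 ± 0.33 (unadjusted p = 0.0478, adjusted p = 1). Without the second wildtype array the difference of Gja9_het from wildtype was 0.31.

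Col14a1, another fibril-associated collagen, had log2 values of -1.91, -1.87, -1.68 and -1.86 in Gja9_null brains, -1.19, -1.30, -1.23 and -1.59 in Gja9_het brains and -1.84, -1.88, -1.90 and -1.99 in wildtype brains. The 4 Gja9_het samples lay above all others. Its difference in Gja9_het against wildtype was 0.58 ± 0.32 (SE, limma, adjusted p = 1), and in Gja9_null against wildtype 0.07 ± 0.32. Col22a1, a collagen of tissue junctions, ranged from -2.02 to -0.26 in Gja9_null brains, -0.91 to -0.33 in Gja9_het brains and -0.92 to 0.24 in wildtype brains, and its Gja9_null difference against wildtype, -0.78 ± 0.51, came to -0.02 without the first Gja9_null array. The differences of the remaining collagens, Col5a2, Col5a3, Col6a1 and Col11a2, lay between -0.35 (Col6a1, Gja9_null against Gja9_het) and 0.27 (Col11a2, Gja9_het against wildtype) over the 3 comparisons.

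The 4 laminins, the trimer chains that nucleate basement membranes, had no common direction in any comparison: 2 of 4 lay below 0 each time. Lama2, the alpha chain of merosin, had log2 values of -0.01, -0.07, -0.44 and -0.49 in Gja9_null brains, -0.03, -0.01, -0.06 and -0.03 in Gja9_het brains and -0.36, -0.49, -0.76 and -0.80 in wildtype brains. The Gja9_het samples lay above all wildtype samples, and the first Gja9_null array lay with them. Its difference was 0.57 ± 0.27 in Gja9_het against wildtype (SE, limma, unadjusted p = 0.0548, adjusted p = 1) and 0.35 ± 0.27 in Gja9_null against wildtype, which was 0.14 without the first Gja9_null array. Lamc1, the gamma chain common to most laminins, read by 4 clones, ranged from -0.31 to 0.26 in Gja9_null brains, -0.08 to -0.01 in Gja9_het brains and -0.23 to 0.08 in wildtype brains. Lamb1, a beta chain, ranged from -2.45 to -1.37 in Gja9_null brains, -1.72 to -1.41 in Gja9_het brains and -1.84 to -1.26 in wildtype brains, with the first Gja9_null array alone below the other samples. Its difference in Gja9_null against wildtype was -0.42 ± 0.37, and 0.10 without that array. Lama4, an endothelial alpha chain, differed by -0.17 ± 0.45, -0.57 ± 0.45 and 0.41 ± 0.45 in Gja9_null against wildtype, Gja9_het against wildtype and Gja9_null against Gja9_het. The first of these was 0.37 without the first Gja9_null array.

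The secreted and structural glycoproteins gave the largest single difference. Thbs2, thrombospondin 2, a matricellular protein that astrocytes secrete and that promotes synapse formation, had log2 values of -3.51, -3.33, -5.86 and -4.95 in Gja9_null brains, -1.81, -2.02, -2.09 and -2.23 in Gja9_het brains and -3.16, -2.83, -2.89 and -2.57 in wildtype brains. All Gja9_null samples lay below all wildtype samples, and these below all Gja9_het samples. The difference was -1.55 ± 0.76 in Gja9_null against wildtype (SE, limma, unadjusted p = 0.0593, adjusted p = 0.457), 0.83 ± 0.76 in Gja9_het against wildtype (adjusted p = 1) and -2.38 ± 0.76 in Gja9_null against Gja9_het (adjusted p = 0.175). Here the low array was the second one of Gja9_null, and the 2 arrays of that genotype lay 1.99 apart. Without the first array the differences were -2.54 and -3.37, and without the second -0.55 and -1.38. Of the 6 astrocyte markers read here (Slc1a3, Aldoc, Glul, Fabp7, Gja1 and Sox9, of 12 listed), the mean lay between 0.53 and 0.83 in Gja9_null brains, 0.32 and 0.70 in Gja9_het brains and 0.17 and 0.57 in wildtype brains. Their part in the Thbs2 values was not tested.

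Sparc, a collagen-binding matricellular protein, had log2 values of 1.95, 2.0, 1.76 and 2.0 in Gja9_null brains, 1.47, 1.65, 1.64 and 1.67 in Gja9_het brains and 1.58, 1.48, 1.66 and 1.65 in wildtype brains. Every Gja9_null sample lay above every other sample. The difference was small, 0.33 ± 0.30 against wildtype (SE, limma, adjusted p = 0.727) and 0.32 ± 0.30 against Gja9_het (adjusted p = 0.645), and close to the same under local centring, 0.34 and 0.33. Sparcl1, hevin, its astrocytic relative, had log2 values of 2.14, 2.31, 2.80 and 3.15 in Gja9_null brains, 2.28, 2.67, 2.63 and 2.89 in Gja9_het brains and 2.88, 3.03, 2.62 and 2.48 in wildtype brains. The genotypes overlapped throughout, and the difference was -0.15 ± 0.41 in Gja9_null against wildtype, 0.23 without the first Gja9_null array, and -0.13 ± 0.41 in Gja9_het against wildtype.

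Fbn2, fibrillin 2, a microfibril protein of developing tissue, had log2 values of -2.47, -2.36, -1.92 and -1.82 in Gja9_null brains, -1.26, -1.31, -1.36 and -1.18 in Gja9_het brains and -1.34, -1.27, -1.95 and -1.65 in wildtype brains. All Gja9_null samples lay below all Gja9_het samples. The difference was -0.86 ± 0.33 (SE, limma, unadjusted p = 0.0183, adjusted p = 0.242), and against wildtype -0.59 ± 0.33 (adjusted p = 0.518). Without the first Gja9_null array these were -0.59 and -0.31, and after local centring -0.42 and -0.08. The small proteoglycans Bgn and Lum, which bind collagen fibrils, differed by -0.20 ± 0.31 and -0.30 ± 0.31 in Gja9_null against wildtype and by 0.12 ± 0.31 and -0.08 ± 0.31 in Gja9_het against wildtype.

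Of the 8 integrin subunits, 4 lay below 0 in Gja9_null against wildtype, and none reached an unadjusted p of 0.05 in that comparison or in Gja9_het against wildtype. Itgb1, the beta subunit common to most matrix-binding integrins and read by 5 clones, had log2 values of 0.81, 0.93, 0.66 and 0.75 in Gja9_null brains, 0.78, 0.89, 0.64 and 0.70 in Gja9_het brains and 0.80, 0.79, 0.83 and 0.82 in wildtype brains. Averaged over the clones, its samples lay within a narrow band, and its differences were -0.02 ± 0.26, -0.06 ± 0.26 and 0.04 ± 0.26 in Gja9_null against wildtype, Gja9_het against wildtype and Gja9_null against Gja9_het (SE, limma, adjusted p = 0.988, 1 and 0.964). This SE was the smallest of the 58 genes, but it belongs to the average of the clones. The 5 clones gave differences between -0.53 and 0.43 in Gja9_null against wildtype. Their signs were mixed in each comparison.

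Itgae, the alpha E subunit that binds E-cadherin on epithelia, had log2 values of 0.65, 0.43, 0.20 and -0.12 in Gja9_null brains, 1.24, 1.22, 1.58 and 1.32 in Gja9_het brains and 0.56, 0.29, 0.96 and 0.87 in wildtype brains. All Gja9_het samples lay above all others. Gja9_null differed from Gja9_het by -1.05 ± 0.32 (SE, limma, unadjusted p = 0.00565, adjusted p = 0.163) and Gja9_het from wildtype by 0.68 ± 0.32 (unadjusted p = 0.0553, adjusted p = 1). After local centring the first of these was -0.85 (limma, adjusted p = 0.0688), and without the first Gja9_null array -1.30.

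Itga6, a laminin receptor subunit of vessels and progenitor cells, had log2 values of -2.55, -2.58, -2.04 and -1.83 in Gja9_null brains, -2.11, -2.04, -2.05 and -2.0 in Gja9_het brains and -2.30, -2.56, -3.47 and -3.26 in wildtype brains. All Gja9_het samples lay above all wildtype samples, and the second wildtype array was the lowest. The difference was 0.85 ± 0.41 in Gja9_het against wildtype (SE, limma, unadjusted p = 0.0559, adjusted p = 1) and 0.64 ± 0.41 in Gja9_null against wildtype. Of the 7 endothelial markers read (Cdh5, Tek, Tie1, Cldn5, Esam, Eng and Slc2a1, of 12 listed), the mean lay between -1.02 and -0.92 in Gja9_null brains, -0.84 and -0.62 in Gja9_het brains and -1.16 and -0.59 in wildtype brains, and their part in the Itga6 values was not tested.

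Itgam, the CD11b subunit of microglia and macrophages, had log2 values of 0.36, 0.37, 0.03 and -0.13 in Gja9_null brains, -0.19, -0.21, -0.05 and -0.11 in Gja9_het brains and 0.29, 0.30, 0.38 and 0.29 in wildtype brains. All Gja9_het samples lay below all wildtype samples, and the second Gja9_null array lay close to them. The difference was -0.46 ± 0.27 in Gja9_het against wildtype (SE, limma, adjusted p = 1) and -0.16 ± 0.27 in Gja9_null against wildtype. The mean of the 5 microglial markers read (C1qa, C1qb, Tyrobp, Fcer1g and Lyz2, of 12 listed) lay between -1.06 and -0.63 in Gja9_null brains, -0.55 and -0.40 in Gja9_het brains and -0.93 and -0.47 in wildtype brains. The marker means of the Gja9_het brains lay within or above the wildtype range. The other subunits were Itga3, a laminin receptor, Itga4 and Itga5, fibronectin receptors, and Itgb5, which pairs with alpha V. Their differences lay between -0.19 and 0.38 in Gja9_null against wildtype and between -0.29 and 0.35 in Gja9_het against wildtype.

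The 11 ADAM and ADAMTS genes all lay below 0 in Gja9_null against wildtype, between -1.03 and -0.05 with a median of -0.39, but none reached an unadjusted p of 0.05. Over all features 58.9% lay below 0 with a median of -0.10. Without the first Gja9_null array 7 of the 11 lay below 0, with a median of -0.14. The count was 10 after median centring of the samples, 8 after quantile normalization and 9 after local centring. In Gja9_het against wildtype 4 of 11 lay below 0, where 45.6% of all features did, and in Gja9_null against Gja9_het 8 of 11, where 63.1% did.

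Adam10, the sheddase that acts as alpha-secretase on the amyloid precursor and on Notch, had log2 values of -1.21, -0.91, -0.89 and -0.59 in Gja9_null brains, -0.58, -0.41, -0.39 and -0.35 in Gja9_het brains and -0.58, -0.44, -0.44 and -0.35 in wildtype brains. All Gja9_null samples lay below all others, sample 4 only just. The difference was -0.45 ± 0.30 against wildtype (SE, limma, adjusted p = 0.606), and its 3 clones gave values between -1.18 and 0.24. Adam17, the sheddase of tumour necrosis factor, had log2 values of -3.78, -3.41, -2.15 and -1.98 in Gja9_null brains, -1.94, -1.69, -1.70 and -1.89 in Gja9_het brains and -3.23, -2.94, -1.70 and -1.89 in wildtype brains. The first arrays of Gja9_null and wildtype were both low, and the difference was -0.39 ± 0.58 in Gja9_null against wildtype, 0.06 after quantile normalization, 0.03 after local centring and 0.38 without the first Gja9_null array, and 0.64 ± 0.58 in Gja9_het against wildtype.

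Adam11, a member without protease activity that is expressed in neurons, had log2 values of -1.77, -1.78, -1.39 and -1.20 in Gja9_null brains, -0.79, -0.78, -0.94 and -1.11 in Gja9_het brains and -1.08, -1.07, -1.18 and -1.08 in wildtype brains. All Gja9_null samples lay below all others. The difference was -0.63 ± 0.31 against Gja9_het (SE, limma, unadjusted p = 0.0627, adjusted p = 0.364) and -0.43 ± 0.31 against wildtype (adjusted p = 0.638), and -0.19 against wildtype without the first Gja9_null array.

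Adam19 had log2 values of -0.41, -0.31, 0.97 and 0.84 in Gja9_null brains, 1.10, 1.08, 0.79 and 0.58 in Gja9_het brains and 0.63, 0.54, 0.55 and 0.64 in wildtype brains. Only the first Gja9_null array differed in sign from the other samples, and the difference against wildtype, -0.32 ± 0.39, was 0.32 without it and -0.95 without the second. Adamtsl1, a secreted ADAMTS-like protein without a protease domain, had log2 values of -4.60, -4.32, -2.63 and -2.70 in Gja9_null brains, -2.31, -2.52, -2.63 and -3.26 in Gja9_het brains and -2.30, -2.82, -2.37 and -2.62 in wildtype brains. Its first Gja9_null array likewise lay below the rest, and the difference of -1.03 ± 0.65 against wildtype (SE, limma, adjusted p = 0.582) came to -0.14 without that array. The aggrecan-cutting Adamts4 had the widest error of the 58, -0.30 ± 0.90. Adam8, Adam9, Adam15, Adamts10 and Adamts17 lay between -0.39 and -0.05 in the same comparison.

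The 5 matrix metalloproteinases differed in different ways. Mmp19 had log2 values of -2.62, -2.75, -1.90 and -1.99 in Gja9_null brains, -1.26, -1.50, -0.73 and -0.81 in Gja9_het brains and -2.25, -2.52, -2.85 and -2.30 in wildtype brains. All Gja9_het samples lay above all others. The difference was 1.40 ± 0.54 in Gja9_het against wildtype (SE, limma, unadjusted p = 0.0211, adjusted p = 1), the smallest p of the 58 genes there, and -1.24 ± 0.54 in Gja9_null against Gja9_het (unadjusted p = 0.0383, adjusted p = 0.312). After local centring the first was 0.99 (limma, unadjusted p = 0.0378).

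Mmp24, a membrane-bound metalloproteinase of the nervous system, had log2 values of -3.30, -3.72, -2.60 and -2.95 in Gja9_null brains, -2.21, -2.54, -2.43 and -2.61 in Gja9_het brains and -2.53, -2.69, -1.66 and -1.85 in wildtype brains. The first Gja9_null array was the lowest and the second wildtype array the highest, and the second Gja9_null array overlapped the first wildtype array. The difference was -0.96 ± 0.36 in Gja9_null against wildtype (SE, limma, unadjusted p = 0.0177, adjusted p = 0.329). It was -0.59 without the first Gja9_null array and 0.02 after local centring.

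The gelatinase Mmp9 had log2 values of -1.62, -1.49, -1.53 and -1.58 in Gja9_null brains, -1.47, -1.45, -1.63 and -1.74 in Gja9_het brains and -3.50, -3.19, -1.15 and -1.37 in wildtype brains. The first wildtype array lay far below all other samples, 2.09 from the second, and the differences of 0.75 ± 0.54 in Gja9_null against wildtype and 0.73 ± 0.54 in Gja9_het against wildtype (SE, limma, adjusted p = 0.636 and 1) rest on it. Without that array they were -0.30 and -0.31. The other gelatinase, Mmp2, ranged from -1.31 to -0.56 in Gja9_null brains, -1.64 to -0.44 in Gja9_het brains and -1.22 to -0.57 in wildtype brains, and its differences were -0.06 ± 0.38 and -0.12 ± 0.38 in the same comparisons. Mmp23 differed by -0.42 ± 0.37 and 0.18 ± 0.37.

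The 3 TIMPs did not share a direction. Timp2, which inhibits metalloproteinases and also helps to activate Mmp2, had log2 values of 0.80, 0.70, 0.58 and 0.34 in Gja9_null brains, 0.59, 0.43, 0.23 and 0.29 in Gja9_het brains and -0.61, -0.45, 0.40 and 0.37 in wildtype brains. The first wildtype array was low, and the second lay within the range of Gja9_het. The difference was 0.68 ± 0.37 in Gja9_null against wildtype (SE, limma, unadjusted p = 0.0898, adjusted p = 0.518). It was 0.22 without the first wildtype array and 1.14 without the second. After local centring it was 0.77 (limma, unadjusted p = 0.00861, adjusted p = 0.182), the smallest p among the 58 genes in that comparison under local centring.

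Timp3, the matrix-bound inhibitor of ADAM17 and ADAMTS proteases, had log2 values of -1.93, -1.62, -1.71 and -1.65 in Gja9_null brains, -0.98, -0.89, -1.78 and -1.74 in Gja9_het brains and -1.09, -0.99, -0.80 and -0.93 in wildtype brains. All Gja9_null samples lay below all wildtype samples, and the second Gja9_het array lay with Gja9_null. The difference was -0.78 ± 0.35 in Gja9_null against wildtype (SE, limma, unadjusted p = 0.0442, adjusted p = 0.423), -0.73 without the first Gja9_null array and -0.22 after local centring. Timp4 had log2 values of -3.25, -3.52, -1.86 and -1.73 in Gja9_null brains, -2.58, -2.59, -2.70 and -2.49 in Gja9_het brains and -2.60, -2.62, -1.97 and -2.25 in wildtype brains. Its first Gja9_null array was the lowest, and the difference of -0.23 ± 0.49 against wildtype was 0.56 without it.

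**Figure D2:**
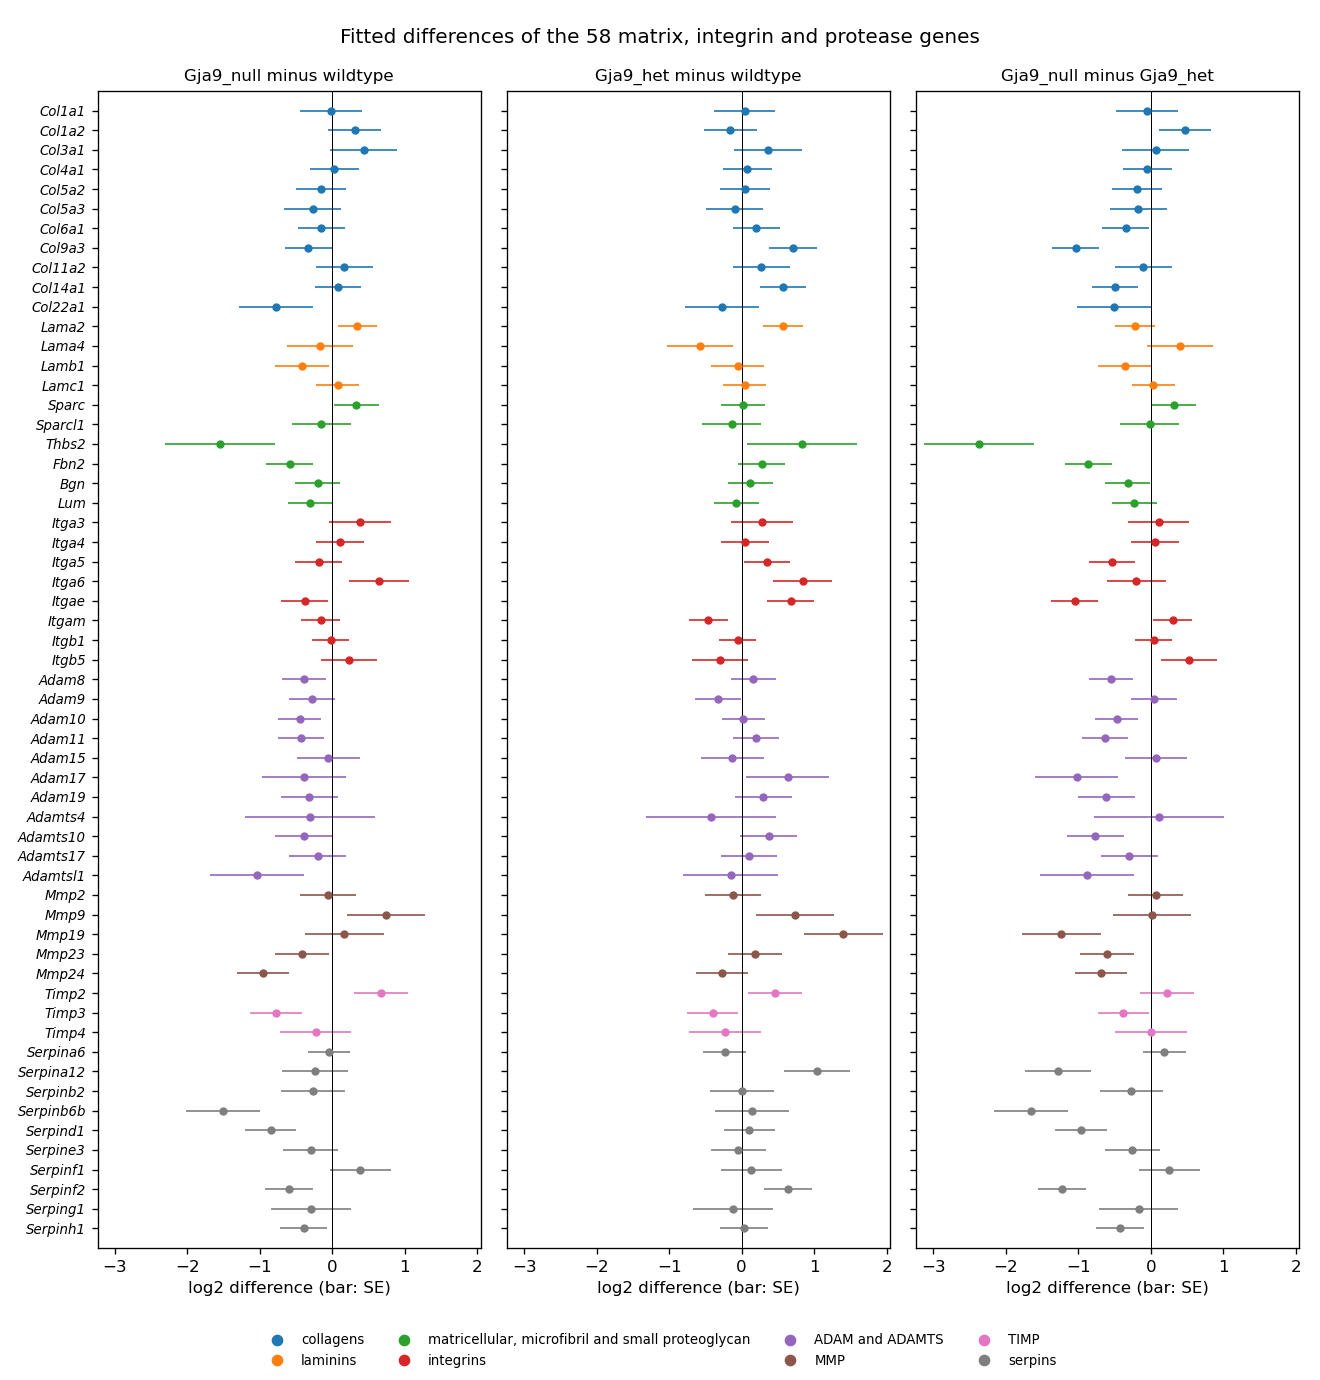
Fitted log2 differences (horizontal axis, bars are SE) of all 58 genes, 1 row per gene and coloured by role, for Gja9_null minus wildtype, Gja9_het minus wildtype and Gja9_null minus Gja9_het. Most points lie within 0.5 of 0, and Thbs2 and Serpinb6b lie farthest to the left in the left and right panels.

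Over the 58 genes, the median difference was -0.22 in Gja9_null against wildtype, 0.06 in Gja9_het against wildtype and -0.24 in Gja9_null against Gja9_het, beside -0.10, 0.03 and -0.17 over all features. The genes below 0 numbered 42 (72.4%), 21 (36.2%) and 40 (69.0%) in these comparisons, beside the 58.9%, 45.6% and 63.1% of all features given above. In size, 46, 46 and 37 of the differences were under 0.5. The SE of a difference had a median of 0.37 and ranged from 0.26 to 0.90, so many changes would not have been called, also some above 1 log2 unit. Thbs2 at -2.38 in Gja9_null against Gja9_het was not called (limma, adjusted p = 0.175).

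Samples of both groups did not overlap for 1 gene that was higher and 8 that were lower in Gja9_null than in wildtype brains, where 7.52% and 15.6% of all features did the same. In Gja9_het against wildtype these were 8 and 2 genes, where 8.67% and 6.09% of all features did. In Gja9_null against Gja9_het they were 3 and 15, where 10.2% and 22.5% did. Samples of 1 array are nearly the same measurement, so a lack of overlap rests on 2 arrays against 2.

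How far arrays of 1 genotype lay apart bears on all of these values. The median gap between the array means of a gene was 0.51 in Gja9_null, 0.24 in Gja9_het and 0.34 in wildtype brains for the 58 genes, and 0.43, 0.28 and 0.36 over all features. It was over 1 for 10 genes in Gja9_null, 2 in Gja9_het and 3 in wildtype brains, where 13.9%, 3.5% and 9.08% of all features had such a gap. The colours of 1 array differed by a median of 0.12 to 0.14 for these genes. Without the first Gja9_null array the median over the 58 genes was -0.05 in Gja9_null against wildtype and -0.22 in Gja9_null against Gja9_het, with 33 and 36 genes below 0. Over all features the medians were then -0.08 and -0.11, so the 58 genes lay no lower than all features in Gja9_null against wildtype. Against wildtype the sign of 15 genes changed without that array (Adam15, Adam17, Adam19, Adamts17, Col11a2, Itga3, Itga4, Lama4, Lamb1, Serpina12, Serpine3, Serping1, Serpinh1, Sparcl1 and Timp4), and another 15 shrank by more than 1.5 times. Against Gja9_het the sign changed for 18 and another 12 shrank that far. Without any 1 of the other arrays the sign changed for 7 to 15 genes in the comparisons that use it.

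Each value was also centred on the median deviation of the clones within 50 probe numbers on either side, a correction for shifts that run along the order of the spots. After this local centring the medians over the 58 genes were -0.08, 0.05 and -0.07, in the order Gja9_null against wildtype, Gja9_het against wildtype and Gja9_null against Gja9_het. The sign changed for 11, 6 and 15 genes. At an unadjusted p under 0.05, 2, 4 and 7 genes passed, of which 1, 2 and 6 also passed with values as deposited. With higher and lower pooled, these are 3.45%, 6.9% and 12.1% of the 58 genes. Pooled in the same way, 15.2%, 7.13% and 20.4% of all features passed after local centring. By direction, 6.9% of the 58 were higher and 0% lower in Gja9_het against wildtype, where 4.75% and 2.38% of all features were. In Gja9_null against Gja9_het 0% were higher and 12.1% lower, where 8.96% and 11.4% were. In Gja9_null against wildtype 1.72% were higher and 1.72% lower, where 7.01% and 8.17% were. These gaps were not tested.

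The 1 gene that passed both ways in Gja9_null against wildtype was Serpinb6b, at -0.70 after centring (limma, unadjusted p = 0.0137, adjusted p = 0.211). Thbs2 was at -0.99, Timp3 at -0.22, Serpind1 at 0.07 and Mmp24 at 0.02. In Gja9_null against Gja9_het, Thbs2 was at -1.70, Serpina12 at -1.13, Itgae at -0.85, Serpinb6b at -0.83 and Serpinf2 at -0.69. None passed an adjusted p of 0.05.

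The direction of a difference depended on the scaling for many of the 58 genes. Between values as deposited, median-centred, quantile-normalized and locally centred values, the sign differed for 19 genes in Gja9_null against wildtype, 8 in Gja9_het against wildtype and 22 in Gja9_null against Gja9_het. Quantile normalization alone moved the median of all features to 0.02 in Gja9_null against wildtype and to -0.01 in Gja9_null against Gja9_het, and that of the 58 genes to -0.03 and -0.05. Among the genes that kept their sign in Gja9_null against wildtype under all 4 scalings, Serpinb6b, Thbs2, Serpinf2, Timp3 and Fbn2 were below 0. Fbn2 was so by as little as -0.08. Timp2 and Sparc were above 0. Others kept their sign as well, such as Adam10 below 0 and Col3a1 above 0.

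**Figure D3:**
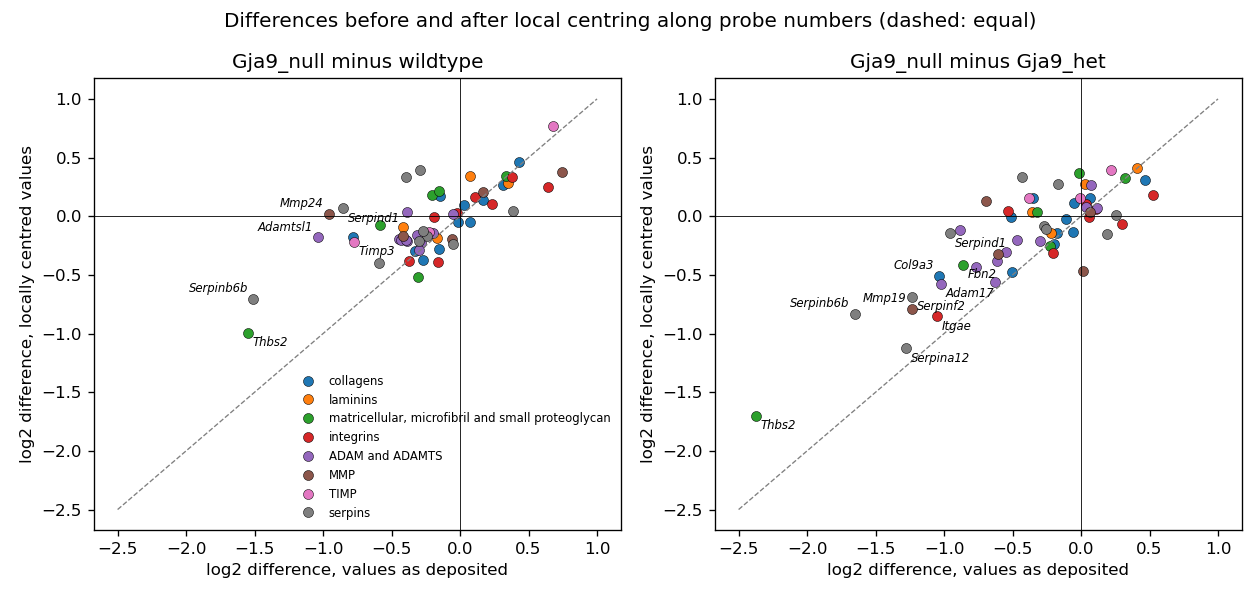
Log2 difference of each of the 58 genes with values as deposited (horizontal axis) and after local centring along probe numbers (vertical axis), coloured by role, for Gja9_null minus wildtype (left) and Gja9_null minus Gja9_het (right), with a dashed line where both are equal. Mmp24 and Serpind1 moved to near 0 in the left panel, while Serpinb6b and Thbs2 stayed below 0 in both.

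For 18 genes the clones could be set against each other. In Gja9_null against wildtype all clones of a gene had the same sign for 7 of the 18, in Gja9_het against wildtype for 6 and in Gja9_null against Gja9_het for 3, beside 43.2%, 40.7% and 44.9% of the 2586 genes with several clones on the array. The 2 Timp3 clones gave -1.49 and -0.06 in Gja9_null against wildtype, so its mean rests on 1 of them. The 4 Timp2 clones lay between -0.27 and 1.34, with 3 above 0. The 2 Lamb1 clones gave 0.44 and -1.27 and the 2 Fbn2 clones -0.16 and -1.02. The 3 Sparc clones were all above 0, between 0.02 and 0.60, and both Serpinh1 clones below, at -0.61 and -0.18. Serpinb6b, Serpind1, Serpinf2, Thbs2, Mmp24 and Mmp19 had 1 clone each, and their values have no second clone to be set against.

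**Figure D4:**
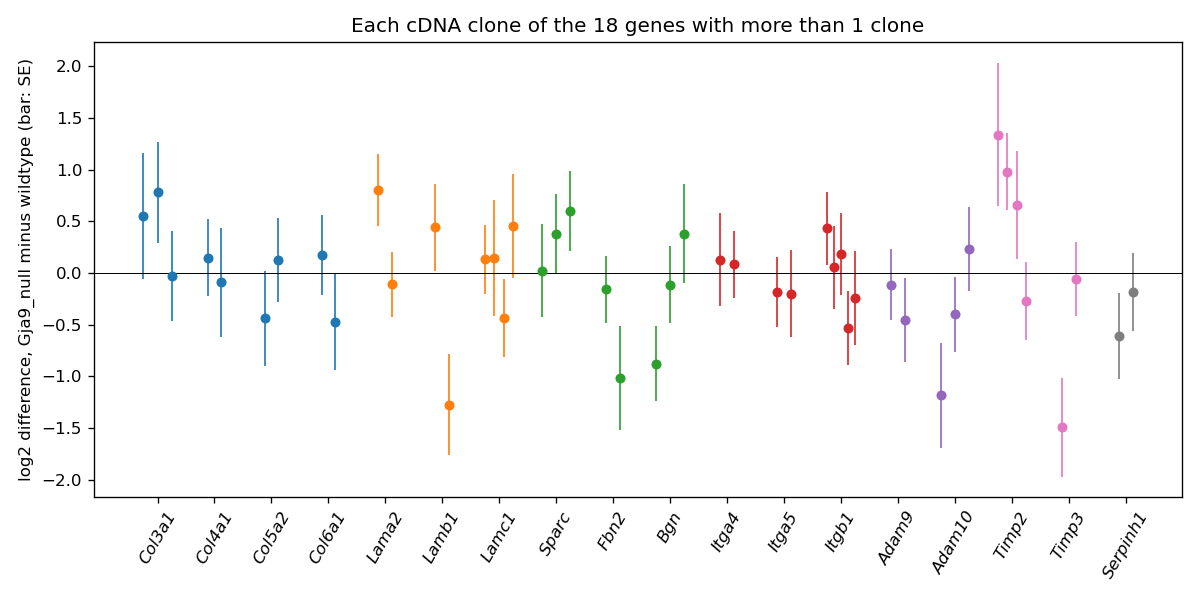
Log2 difference in Gja9_null minus wildtype (vertical axis, bars are SE) of every cDNA clone of the 18 genes with more than 1 clone, coloured by role as in the plot of all differences. Clones of Timp3, Lamb1, Adam10 and Timp2 lie apart by more than their errors.

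Genes that work with these families were read from lists. Of other matrix genes, 20 of 52 listed were measured, and 0 were called in any comparison. Their median was -0.28 in Gja9_null against wildtype, beside -0.10 over all features. At an unadjusted p under 0.05, 0 genes were higher and 1 lower, where 2.41% and 9.22% of all features were. The lower gene was Tgfbi, a collagen-binding protein induced by TGF-beta, at -0.73 ± 0.27 (SE, limma, adjusted p = 0.324). Of collagen-modifying enzymes 10 of 23 were measured with a median of -0.20 and 0 genes at that level. In Gja9_null against Gja9_het 1 of these 10 was lower at that level, where 11.3% of all features were. It was Loxl2, a lysyl oxidase that crosslinks collagen, at -1.12 ± 0.41 (SE, limma, adjusted p = 0.226).

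Of integrin signalling genes 21 of 25 were measured, and their median was 0.00 in Gja9_null against wildtype. Cd151, a tetraspanin that binds laminin receptors, was at -0.90 ± 0.30 and Pxn, paxillin, a focal adhesion scaffold, at 0.77 ± 0.30 (SE, limma, adjusted p = 0.260 and 0.336). Pxn was at 1.04 ± 0.30 in Gja9_het against wildtype (adjusted p = 1), and no list gene was called there. Of other proteases and inhibitors 12 of 31 were measured, with a median of -0.48 in Gja9_null against wildtype, beside -0.10 over all features. The differences of the 12 lay between -0.99 and 0.79. At an unadjusted p under 0.05, 3 were lower and 1 higher, where 9.22% and 2.41% of all features were. The 3 lower ones were the neutral endopeptidase Mme at -0.99 ± 0.32 and the lysosomal cathepsins Ctsz at -0.91 ± 0.30 and Ctsa at -0.95 ± 0.34 (SE, limma, adjusted p = 0.251, 0.264 and 0.296).

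Markers of the cells that make much of this matrix were few. Of 12 meningeal fibroblast markers 4 were read (Pdgfra, Slc6a13, Igf2 and Ptgds), with a mean between -0.77 and -0.07 in Gja9_null brains, -0.04 and 0.11 in Gja9_het brains and -0.27 and 0.25 in wildtype brains. Of 9 pericyte markers 2 were read (Pdgfrb and Rgs5), between -1.34 and -1.0 in Gja9_null brains, -1.55 and -1.35 in Gja9_het brains and -1.48 and -1.27 in wildtype brains. Blood markers, 3 of 8 read (Hba-a2, Hbb-b1 and Alas2), lay between 0.95 and 1.22 in Gja9_null brains, 1.22 and 1.71 in Gja9_het brains and 1.08 and 1.81 in wildtype brains. Choroid plexus markers, 2 of 8 read (Ttr and Aqp1), lay between -1.27 and -0.48 in Gja9_null brains, -1.39 and -0.50 in Gja9_het brains and -1.34 and -0.35 in wildtype brains. Oligodendrocyte markers, 3 of 10 read (Mbp, Cnp and Olig2), lay between 0.58 and 1.19 in Gja9_null brains, 0.97 and 1.48 in Gja9_het brains and 1.28 and 1.47 in wildtype brains. No marker was called in any comparison, and the part of these cells in the values of the 58 genes was not tested.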

How the data were processed

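Total RNA was extracted from brain with Trizol, and 60 micrograms of it were labelled per sample, as Cy5 or as Cy3, per the labels' protocols. Dyes were taken from the label field, also for wildtype 3 and Gja9_null 1, whose protocol text gives the opposite colour. The authors deposited log2 values, 1 per probe and sample, scaled so that the linear signals of a sample average 1. For background, dyes and weak probes the handling by the authors was not given in the sources used here. Arrays have no read depth, and their number limits the precision. Of 28704 probes, 13443 had values in all 12 samples and 10356 of these name 1 gene in the platform's probe table. For 10263 probes the symbol was taken by gene ID from a RefSeq gene table, whether or not it differed.

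Which samples shared an array was read from the values: the difference between samples 1 and 3 correlated with that between samples 2 and 4 at 0.919 to 0.940 across probes. One limma model (version 3.58.1, R 4.3.3, two-sided moderated tests) covered the 12 samples, with fixed terms for genotype and dye and a random block for the array (consensus correlation 0.927). Clones of a gene were averaged, other probes were tested alone, and the Benjamini-Hochberg adjustment covered 9514 features. The fit was tested on simulated data. Same-numbered samples also share a dye. In their deviations from the genotype means they correlated at 0.127 to 0.237 in all 4 pairs of Gja9_het and wildtype, each best with its own number. By these correlations the numbers match samples there. A pairing of samples cannot be told apart from the dye and array order that same numbers share. With Gja9_null the correlations were 0.0111 to 0.050 (Gja9_het) and -0.101 to -0.0666 (wildtype), and the numbers pair no samples. The labels do not say what a number marks. Values in every sample are given by rule for the 10 smallest unadjusted p in each comparison, the brightest gene of each role group and a list of well-known genes, some of these as ranges. The members, gene lists and tests were chosen with earlier results of these data known. Alternatives covered the array block and pairing, the replicate number as a block, dye, scaling, dim probes, clones, the spread model and leaving out each sample or array. Tables and figures were made with Python 3.11.15, pandas 2.3.3 and matplotlib 3.10.9. No sequence is printed, since the clone sequences were not used here.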

Additional observations from a re-analysis of the deposited data

Results flagged for a closer look

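In 4 of 174 sets of 4 samples, 1 sample was set off from the other 3 relative to the range of the set. Its gap over the range passed the 95% critical value of Dixon's gap test for 4 values. A small gap can pass where the other 3 values lie close together. For 4 independent values chance gives about 1 in 20, but each of these sets holds both colours of 2 arrays, which correlate at 0.986 to 0.991, so that rate does not hold for them. Sparc was at 1.47 in Gja9_het sample 1, where the other Gja9_het samples lay between 1.64 and 1.67. Itga5 was at -0.65 in Gja9_null sample 2, where the others lay between -0.50 and -0.48. Adam11 was at -1.18 in wildtype sample 3, where the others lay between -1.08 and -1.07. Itgam was at 0.38 in wildtype sample 3, where the others lay between 0.29 and 0.30.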

How the results depend on the processing

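No gene of the 58 was called in any comparison with values as deposited, nor with the samples median-centred, quantile-normalized or locally centred, without dye, with array means, an intensity trend, the brightest clone of each gene, only the 2 genotypes compared, or the dimmest 25% of probes left out (39 genes). At a limma adjusted p under 0.1 the count was 0 in each comparison with values as deposited, where 56, 0 and 119 of the 9514 features passed. In Gja9_null against Gja9_het 1 gene passed after local centring (Itgae, 0.0688), with only the 2 genotypes (Serpinf2, 0.0990) and with an intensity trend (Serpinf2, 0.0978). Of all features 378, 129 and 109 passed in these fits. Serpinf2 also passed in this comparison without the first or the second wildtype array (0.0941 and 0.0696), and Thbs2 without the first Gja9_null array (0.0718). There 208, 225 and 170 of all features passed. Without the second Gja9_null array 5 genes passed against wildtype and 12 against Gja9_het, where 1229 and 1434 of the 9514 features did. Without an array block, which treats both colours of an array as independent, 7 genes were called in Gja9_null against wildtype, 1 in Gja9_het against wildtype and 14 in Gja9_null against Gja9_het, where 15.4%, 0.736% and 22.3% of all features were. With the other pairing of samples into arrays these were 46, 33 and 42, where 74.9%, 60.4% and 79.3% of all features were called, with a block correlation of -0.908. Without the second Gja9_null array, 2 genes were called in Gja9_null against wildtype (Serpinb6b and Serpind1) and 3 in Gja9_null against Gja9_het (these and Adam19), all lower, where 8.21% and 8.45% of all features were called. Leaving out 1 sample gave counts of 0 to 0 in all comparisons, and leaving out 1 array 0 to 2, 0 to 0 and 0 to 3.

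The median over the 58 genes in Gja9_null against wildtype was -0.034 after quantile normalization, -0.084 after local centring, with or without array means, and -0.053 without the first Gja9_null array. In Gja9_null against Gja9_het it was -0.046 after quantile normalization, -0.072 after local centring, with or without array means, -0.017 without dim probes and -0.42 without the second Gja9_null array. In Gja9_het against wildtype it was 0.20 without the second Gja9_het array. Leaving out 1 sample gave medians of -0.24 to -0.20, 0.05 to 0.10 and -0.29 to -0.22 in Gja9_null against wildtype, Gja9_het against wildtype and Gja9_null against Gja9_het. The cause of these shifts was not tested.

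With the replicate number as a block, which sets same-numbered samples of the 3 genotypes together, 0 genes were called in each comparison. The block changed no call, and the medians were -0.22, 0.06 and -0.24.

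Of all features, 31, 0 and 26 were called in Gja9_null against wildtype, Gja9_het against wildtype and Gja9_null against Gja9_het. These were 2, 0 and 0 with array means, 5, 0 and 0 after quantile normalization, 23, 0 and 0 after median centring, 56, 1 and 134 after local centring, 3, 0 and 1 with only the 2 genotypes, 7, 0 and 0 without dim probes, 24, 0 and 5 with an intensity trend, 45, 0 and 44 with the replicate block, 781, 0 and 804 without the second Gja9_null array, 1464, 70 and 2119 without an array block, and 7122, 5747 and 7543 with the other pairing.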
